A study of Mus musculus with 8 samples.

Results

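Ribosomal proteins form the protein part of the cytosolic ribosome, and their genes were followed here in immortalized mouse pancreatic stellate cells (PSCs) after medium conditioned by pancreatic cancer organoids. The genes were taken by symbol (Rpl or Rps followed by a number and at most 1 letter, together with Rplp0 to Rplp2 and Rpsa), which gave 76 of the 12160 genes in the count table, 45 of the large and 31 of the small subunit. Rpl32l, a member by its symbol, is a copy of Rpl32. Rpl3l, Rpl10l, Rpl39l and Rps4l, related genes with restricted expression elsewhere, had no row in the table and are not analysed here. Stellate cells are fibroblast-like cells of the pancreas that can become cancer-associated fibroblasts. All cells were cultured as domes in growth factor-reduced Matrigel, for 4 days in growth medium and for 4 further days in 1 of 3 media. shBrca2-CM was conditioned by KPC organoids, a mouse pancreatic cancer model, in which an shRNA targeted Brca2 (3 libraries), and shControl-CM by KPC organoids with a control shRNA (3 libraries). The control libraries (2) are called growth medium here, after their titles (DMEM), although their recorded treatment names the own conditioned medium of PSCs. The 3 groups thus share 1 cell line and 1 culture system, and differences between a conditioned medium and the control cannot be told apart from how each medium was prepared. The paper states less serum for collecting organoid conditioned medium than for growth medium (10% FBS), whereas the sample records give 10% FBS for all libraries. An effect of serum cannot be told apart either.

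Each cytosolic ribosome holds one copy of nearly every ribosomal protein, and free proteins in excess are degraded, so cells keep their amounts in balance. The messages are among the most abundant of a growing cell and begin with a run of pyrimidines (the 5′ TOP motif), through which mTOR signalling adjusts how well they are translated. Because translation and turnover act after the message is made, counts of messages do not measure ribosomes or protein.

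MARS-seq libraries count the 3′ ends of messages, so a count carries no information on splice forms, and levels are given as CPM (counts scaled to library size, with TMM factors that set libraries on a common scale by the bulk of their genes). Growth medium libraries were the deepest (5476988 and 4623846 counts), shControl-CM libraries held 1093609 to 1624392 counts and shBrca2-CM libraries 655996 to 1095534. A floor of 3 counts was thus 0.521 and 0.645 CPM with growth medium, 1.92 to 2.90 after shControl-CM and 2.66 to 4.34 after shBrca2-CM. Fibroblast markers summed to 7147 and 8021 CPM with growth medium, but to 5199 to 5775 with shControl-CM and 5006 to 5276 with shBrca2-CM. Against growth medium 4 of these 15 markers rose (26.7%) and 6 fell (40%) with shControl-CM (median log2 change -0.30), beside 18.4% and 19.5% of all genes. With shBrca2-CM 6 rose and 6 fell (40% each way, median -0.0035), beside 19.1% and 19.8% of all genes. Between the conditioned media 3 were higher and 3 lower with shBrca2-CM (20% each way, beside 1.59% and 1.55% of all genes). The 3 epithelial markers in the table (of 10) summed to 41.7 and 37.0 CPM (growth medium), 57.7 to 70.6 (shControl-CM) and 59.3 to 94.1 (shBrca2-CM). Against growth medium 2 of them rose (66.7%) and 1 fell (33.3%) in both comparisons. Between the conditioned media 1 of them, Krt19, was higher with shBrca2-CM (log2 2.12, adjusted p = 0.0632), and 0 were lower. The 2 immune markers (of 6) summed to 9.04 and 7.52 CPM with growth medium, 16.7 to 22.4 with shControl-CM and 13.0 to 23.1 with shBrca2-CM. Against growth medium 1 of these 2 rose (50%) and 0 fell in both comparisons. The 2 endothelial markers (of 4) summed to at most 3.48 CPM. The part of these differences in the results was not tested. Fewer expressing cells and less RNA per cell cannot be told apart in such bulk libraries.

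Ribosomal protein genes took 8.57% to 10.9% of all counts in every library, with the lowest share after shControl-CM. The share was 9.77%, 10.5% and 9.85% with shBrca2-CM (10.0% ± 0.387, SD, n = 3), 8.57%, 8.65% and 8.94% with shControl-CM (8.72% ± 0.195, SD, n = 3), and 10.5% and 10.9% with growth medium. All 3 shControl-CM libraries lay below the other libraries. Counting error was small beside these gaps, with an exact (Clopper-Pearson) 95% interval of 8.53% to 8.62% in the lowest library; such intervals cover the error of counting alone. The 10 most abundant genes of each library took 5.43% and 5.51% of the counts with growth medium, 12.0% to 12.2% after shControl-CM and 7.54% to 7.90% after shBrca2-CM. Without them the ribosomal share was 9.76% and 9.66% with growth medium, 9.03% to 9.23% after shControl-CM and 9.03% to 10.1% after shBrca2-CM, and the conditioned media overlapped. The genes taken out held 1 to 3 ribosomal protein genes per library. The overlap rested on shBrca2-CM replicate 3 (9.03%, with 3 of them taken out), since replicates 1 and 2 stayed at 9.89% and 10.1%. Large subunit genes had 1.44 to 1.54 times the counts of small subunit genes in all 8 libraries, and the ranges of the 2 conditioned media overlapped. The plot of the share per library shows both subunits lowest after shControl-CM.

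**Figure D1:**
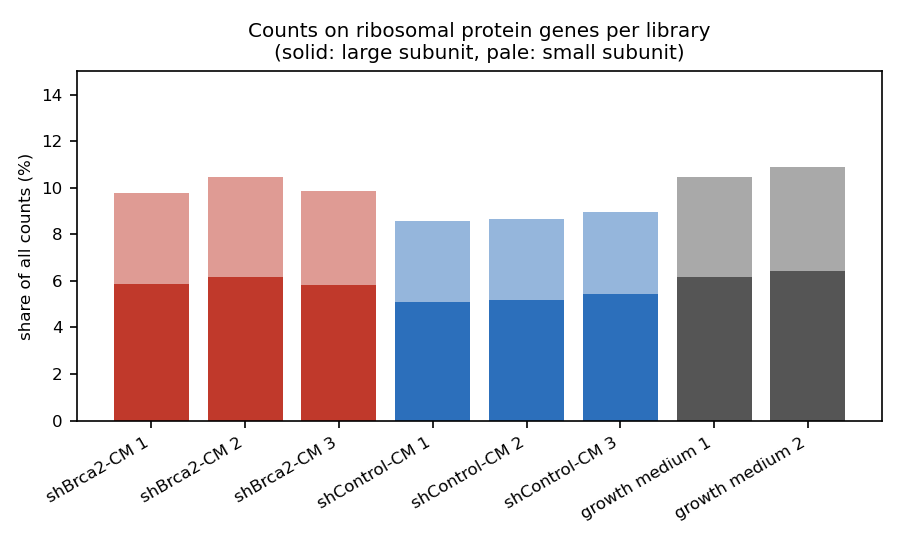
Share of all counts on the 76 ribosomal protein genes in each library, in percent, with the large subunit (solid) stacked under the small subunit (pale) and the media in 3 colours. The 3 shControl-CM bars, at 8.57% to 8.94%, are the lowest.

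Against growth medium, single ribosomal protein genes moved in both directions. With shControl-CM, 15 of 76 members rose (19.7%) and 21 fell (27.6%), where the background over all 12086 genes tested was 18.4% higher and 19.5% lower. With shBrca2-CM, 17 rose (22.4%) and 20 fell (26.3%), against 19.1% and 19.8% of 12049 genes. A gene was called by edgeR's quasi-likelihood test at an adjusted p under 0.1, a log2 fold change over 0.5 in size and a mean normalized count over 5. By adjusted p alone 18 rose and 28 fell with shControl-CM (all genes 19.5% and 22.4%), and 24 rose and 27 fell with shBrca2-CM (22.2% and 24.1%). The groups did not overlap for 55 of 76 members with shControl-CM (72.4%, all genes 59.9%) and for 60 with shBrca2-CM (78.9%, all genes 57.4%). Median log2 fold changes were -0.15 (large) and -0.14 (small) with shControl-CM, beside -0.10 for all genes, and -0.08 and -0.14 with shBrca2-CM, beside -0.05. The large subunit median with shBrca2-CM changed sign in some alternatives, as to 0.070 without growth medium replicate 2 and to 0.047 after thinning. Ribosomal protein genes are abundant, so genes over 100 mean normalized counts are a closer background, and 67 members were among them. With shControl-CM 26.5% of these 4771 genes rose and 20.1% fell (median 0.08), beside 20.9% and 29.9% of the 67 members (median -0.11), so the balance of the members ran the other way. With shBrca2-CM 22.6% of 4488 such genes rose and 22.4% fell (median 0.01), beside 22.4% and 26.9% of the members (median -0.10). Groups did not overlap for 67.0% and 69.0% of the abundant genes and for 74.6% and 82.1% of these members. None of these gaps was tested. Both comparisons use the same 2 growth medium libraries, so their values are not independent. More members fell than rose in both comparisons, but this order was not kept in every alternative. With shControl-CM 7 rose and 14 fell without growth medium replicate 1, and 10 rose and 10 fell without replicate 2, while the calls over all genes went from 37.8% to 16.6% and 19.6%. With shBrca2-CM the numbers were 19 and 19, and 18 and 16, without those libraries, 18 and 17 without shBrca2-CM replicate 1, 17 and 17 without shBrca2-CM replicate 2, and 16 and 16 by DESeq2 or with libraries thinned to the smallest. Calls over all genes were 38.8% there in the full set, 36.3% to 38.8% without 1 of those libraries, and 29.7% to 32.0% by DESeq2 or after thinning.

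**Figure D2:**
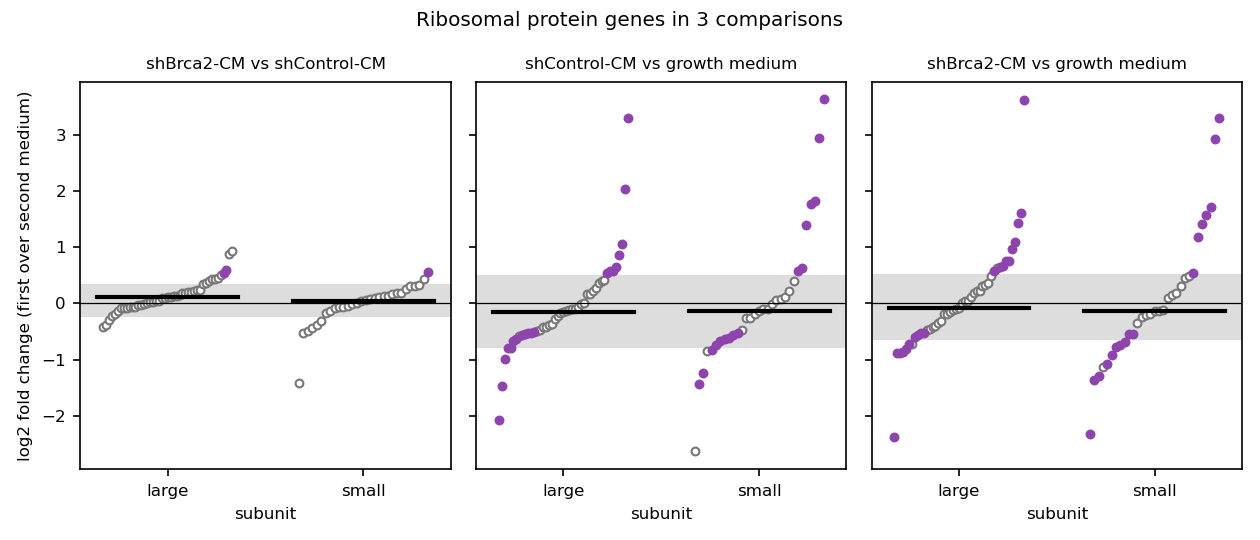
Log2 fold change (first over second medium) of each ribosomal protein gene, by subunit and comparison, sorted within a subunit. Filled points passed the call rule, black lines are the subunit medians, and the grey band is the middle 50% of all genes tested. Between the conditioned media the points lie between -1.41 and 0.92, with 8 of 75 over 0.5 in size, and against growth medium they spread from below -2 to above 3.

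Rps25, Rps4x and Rpl39 rose most against growth medium in both comparisons, followed, apart from Rps24 with its few counts, by Rps27a and Rpl36a. Rps25, a protein of the small subunit head used by some viral internal ribosome entry sites, stood at 30.6 and 33.3 CPM with growth medium, 289, 460 and 449 with shControl-CM, and 268, 388 and 287 with shBrca2-CM. Every conditioned library lay well above both control libraries, with fitted changes of 12.4-fold (log2 3.63 ± 0.24, SE, adjusted p = 6.62e-06) and 9.84-fold (3.30 ± 0.17, adjusted p = 2.45e-24). Rps4x, the X-linked copy of a small subunit protein, had 51.4 and 49.9 CPM with growth medium, 376, 373 and 424 with shControl-CM, and 409, 361 and 388 with shBrca2-CM. Its spread within each group was small beside changes of 7.68-fold (2.94 ± 0.17, adjusted p = 2.56e-06) and 7.62-fold (2.93 ± 0.16, adjusted p = 1.17e-23). Rpl39, a very small protein that lines the exit tunnel for the growing chain, had 9.56 and 6.23 CPM with growth medium, 30.8, 16.4 and 187 with shControl-CM, and 148, 82.1 and 72.8 with shBrca2-CM. All 6 conditioned libraries were above both growth medium libraries, shControl-CM replicate 2 by the least. The log2 change with shControl-CM (3.30 ± 0.84, adjusted p = 0.0144) rested on replicate 3 for its size and was 1.61 (adjusted p = 0.000542) without it. That call was lost without either growth medium library, while with shBrca2-CM the change was 3.61 ± 0.24 (adjusted p = 2.26e-19).

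Rps27a, made as a fusion to ubiquitin and so a source of both, had 282 and 285 CPM with growth medium, 933, 945 and 1040.5 with shControl-CM, and 787, 1117 and 888 with shBrca2-CM. All conditioned libraries were far above the control ones, with log2 changes of 1.77 ± 0.15 (adjusted p = 3.69e-05) and 1.72 ± 0.15 (adjusted p = 4.71e-15). Rpl36a, a large subunit protein near the exit site for tRNA, had 198 and 265 CPM with growth medium, 639, 999 and 1234 with shControl-CM, and 612, 796 and 709 with shBrca2-CM. Its log2 changes were 2.04 ± 0.27 (adjusted p = 0.000449) and 1.61 ± 0.15 (adjusted p = 9.33e-14). Rpl36al, its autosomal copy outside the rule, rose less, by 0.55 ± 0.15 (adjusted p = 0.0203) and 0.51 ± 0.15 (adjusted p = 0.00385), from 143 and 140 CPM to 194 to 220.

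Further members that rose against growth medium included Rpl35a, Rpl7, Rpl31 and Rpl6. Rpl35a, one of the genes mutated in Diamond-Blackfan anaemia, had 325 and 266 CPM with growth medium and 501 to 687 with the conditioned media (1.05 ± 0.16, adjusted p = 0.00127, and 0.96 ± 0.15, adjusted p = 1.9e-07). Rpl7 and Rpl31 differed also between the conditioned media, as given below. Rpl6 rose by 0.64 ± 0.17 (adjusted p = 0.0178) with shControl-CM and was not called without growth medium replicate 1, and by 0.67 ± 0.14 (adjusted p = 9.51e-05) with shBrca2-CM. Rps24 met the thresholds in both comparisons but with 3 to 13 counts per library, and its call was lost without either growth medium library with shControl-CM, and without shBrca2-CM replicate 3 (adjusted p = 0.315) or growth medium replicate 2 (adjusted p = 0.104) with shBrca2-CM.

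**Figure D3:**
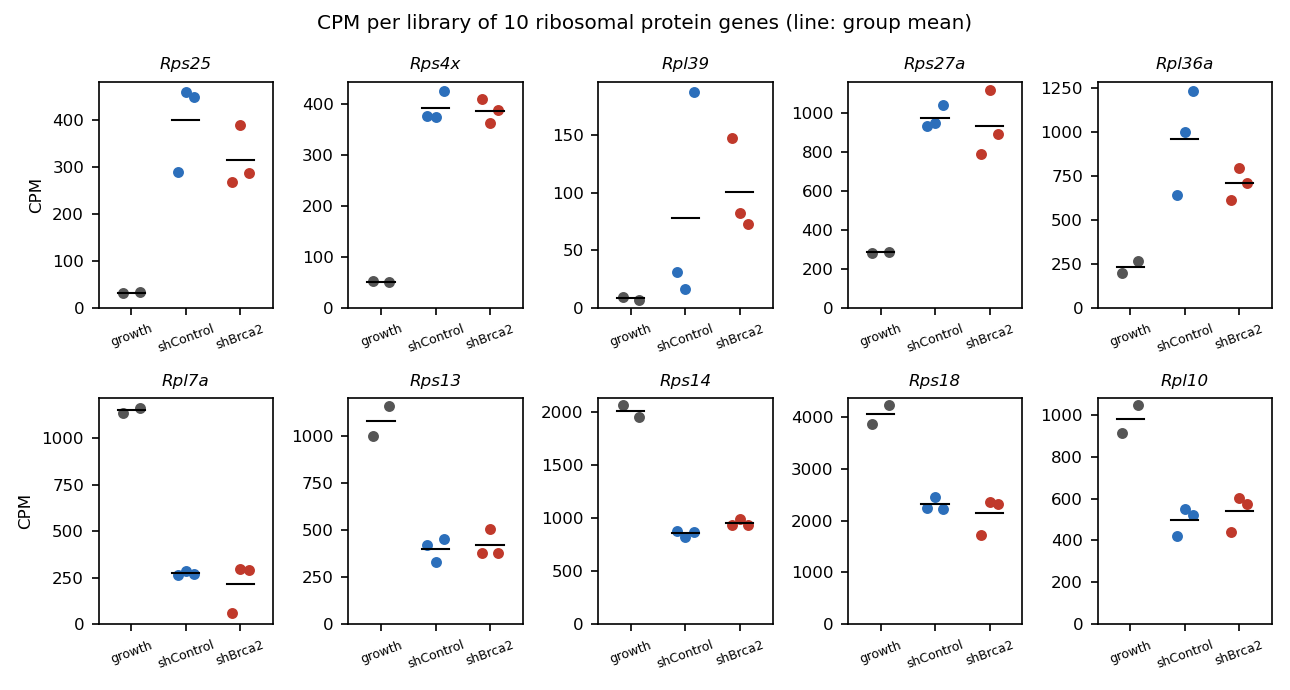
CPM of 10 ribosomal protein genes in each library, on linear axes from 0, with a line at the group mean (2 growth medium, 3 shControl-CM and 3 shBrca2-CM libraries). The upper genes are higher and the lower genes are lower in every conditioned library than in both growth medium libraries.

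Among called members other than Rpl15 and Rps27, which had few counts, Rpl7a fell most in both comparisons and Rps13 came next, followed by Rps14 and Rpl10 with shControl-CM and by Rps27l, Rps14 and Rps18 with shBrca2-CM. Rpl7a, a large subunit protein bound early in assembly, had 1136 and 1159.9 CPM with growth medium, 266, 287 and 268 with shControl-CM, and 60.8, 297 and 293 with shBrca2-CM. All conditioned libraries were far lower, at a 4.22-fold (log2 -2.08 ± 0.14, adjusted p = 7.85e-06) and a 5.17-fold (-2.37 ± 0.21, adjusted p = 1.07e-14) difference, and shBrca2-CM replicate 1 stood apart. Rps13, of the small subunit body, had 999.6 and 1159 CPM with growth medium, 422, 328 and 454 with shControl-CM, and 376, 504 and 379 with shBrca2-CM. It fell by 1.43 ± 0.17 (adjusted p = 0.000262) and 1.36 ± 0.14 (adjusted p = 2.66e-12) on the log2 scale. Rps14, lost with the 5q chromosome arm in a form of myelodysplastic syndrome, had 2066 and 1953 CPM with growth medium, 878, 821 and 866 with shControl-CM, and 932, 991 and 935 with shBrca2-CM. It fell by 1.24 ± 0.14 (adjusted p = 0.000198) and 1.07 ± 0.13 (adjusted p = 3.21e-10), with no overlap between groups. Rpl10, one of the last proteins added to the large subunit, had 916 and 1051 CPM with growth medium, 423, 553 and 521 with shControl-CM, and 440, 604 and 576 with shBrca2-CM. It fell by 0.99 ± 0.16 (adjusted p = 0.00166) and 0.86 ± 0.14 (adjusted p = 6.1e-07).

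Rps18, near the top of the small subunit head and often used as a reference gene, had 3882 and 4251 CPM with growth medium, 2252, 2465 and 2230.3 with shControl-CM, and 1732, 2369 and 2327 with shBrca2-CM. It fell by 0.82 ± 0.15 (adjusted p = 0.00277) and 0.92 ± 0.13 (adjusted p = 3.26e-08) on the log2 scale. Rps27l, a p53 target closely related to Rps27, had 352 and 342 CPM with growth medium, 136, 227 and 264 with shControl-CM, and 137, 173 and 119 with shBrca2-CM. It fell by 1.29 ± 0.15 (adjusted p = 2.29e-10) with shBrca2-CM and by 0.74 ± 0.23 (adjusted p = 0.0337) with shControl-CM, a call lost without either growth medium library. Rps6, the S6 kinase substrate that serves as a readout of mTOR signalling, fell by 0.55 ± 0.17 (adjusted p = 0.0287) and 0.75 ± 0.15 (adjusted p = 5.52e-05), from 193 and 241 CPM to 138, 144 and 164 with shControl-CM and 130, 127 and 130 with shBrca2-CM. Rpsa, also known as the laminin receptor precursor, fell by 0.66 ± 0.16 (adjusted p = 0.0122) and 0.55 ± 0.13 (adjusted p = 0.000376). The calls of Rps6 and Rpsa with shControl-CM were lost without growth medium replicate 2.

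Rplp0, Rplp1 and Rplp2 encode the P-stalk, which recruits elongation factors. Rplp0, the stalk base and another common reference gene, had 3908 and 3909.7 CPM with growth medium, 2442 to 2600.5 with shControl-CM and 2616 to 2869 with shBrca2-CM, and fell by 0.63 ± 0.14 (adjusted p = 0.0087) and 0.52 ± 0.12 (adjusted p = 0.000489). Rplp1 had the most counts of all members and fell by adjusted p alone (-0.47 ± 0.15, adjusted p = 0.0365, and -0.39 ± 0.12, adjusted p = 0.0071), the first lost without either growth medium library. Rplp2, its partner, was at 2116 to 2548 CPM with the conditioned media and 2236 and 2671 with growth medium, with log2 differences of -0.10 ± 0.16 and -0.10 ± 0.13 (adjusted p = 0.661 and 0.577). Rpl8, a large subunit protein also among the 5 members with the most counts, had 3324 and 3878 CPM with growth medium, 4354, 4594 and 4977 with shControl-CM, and 4191, 4450.0 and 4774 with shBrca2-CM. All conditioned libraries were above both control ones, and the log2 differences were 0.36 ± 0.16 (adjusted p = 0.107) and 0.32 ± 0.13 (adjusted p = 0.0404), the second past adjusted p alone and lost without shBrca2-CM replicate 3 or growth medium replicate 1.

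Rpl5 and Rpl11 bind 5S rRNA and can hold Mdm2 away from p53. Rpl11 had 1665 and 2019 CPM with growth medium, 1535 to 1739 with shControl-CM and 1319 to 1424 with shBrca2-CM, and was lower in the last by adjusted p alone (-0.42 ± 0.13, adjusted p = 0.00706, lost without growth medium replicate 2). Rpl5 had few counts, from 2.72 to 39.8 CPM, and its rise with shBrca2-CM (0.75 ± 0.25, adjusted p = 0.0136) was lost without shBrca2-CM replicate 2. Of other members fixed for their roles, Rpl13a fell by 0.52 ± 0.13 (adjusted p = 0.000848) with shBrca2-CM, and by adjusted p alone by 0.42 ± 0.15 with shControl-CM (adjusted p = 0.0543, lost without either growth medium library), and Rps19, the gene most often mutated in Diamond-Blackfan anaemia, had log2 values of 0.22 ± 0.15 (adjusted p = 0.287) and 0.46 ± 0.13 (adjusted p = 0.00268). Rpl3, close to the peptidyl transferase centre, Rpl22, and Rpl38, known for its part in Hox translation, did not pass the test in either comparison, with log2 differences between -0.11 and 0.22.

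A group of 9 members averaged under 30 CPM (Rpl5, Rpl15, Rpl21, Rpl32l, Rpl34, Rps15a, Rps20, Rps24 and Rps27), where sampling limits what can be seen. Rps20 had 9 and 9 counts with growth medium but 1, 0 and 0 with shControl-CM and 2, 0 and 0 with shBrca2-CM, which is under the floor, and a fold is not given because 3 counts in any of those libraries equal more CPM than the growth medium mean. Rps27, at 28 and 14 counts with growth medium and 0, 0 and 2 with shBrca2-CM, gets no fold, since 3 counts in the shallowest of these libraries exceed the growth medium mean in CPM, although it met the thresholds (adjusted p = 0.0287, lost without shBrca2-CM replicate 1 or 2). Rpl15 fell with shControl-CM by 1.47 ± 0.43 (adjusted p = 0.0265), with 22, 6 and 5 counts there, and by 2.32 without shControl-CM replicate 1. That call was lost without shControl-CM replicate 2 (adjusted p = 0.113), growth medium replicate 1 (adjusted p = 0.200) or growth medium replicate 2 (adjusted p = 0.143).

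**Figure D4:**
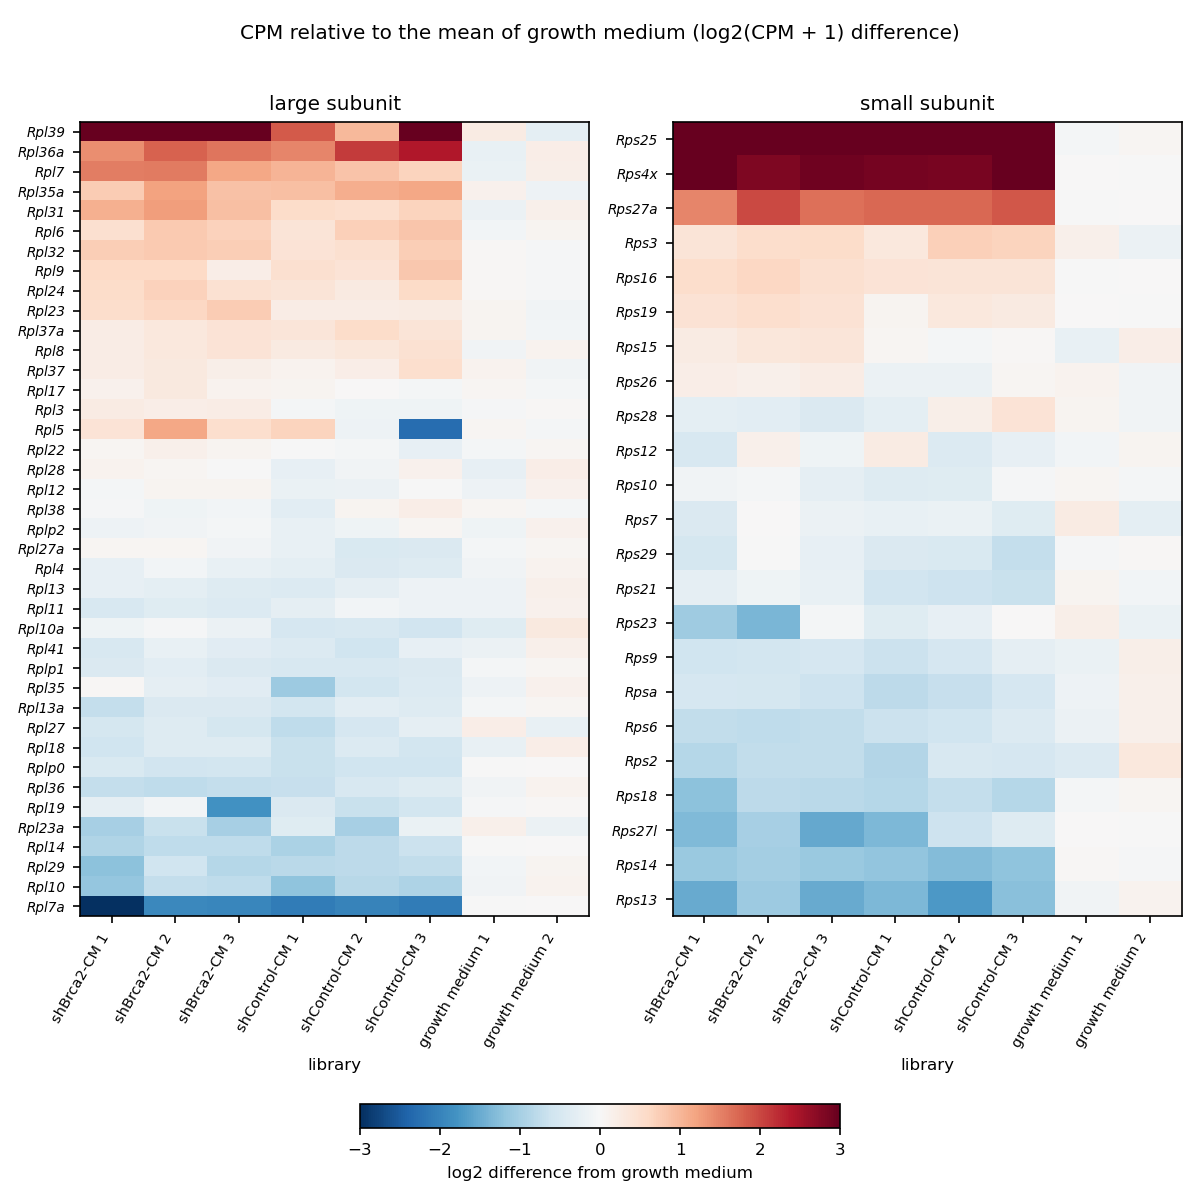
Difference of log2(CPM + 1) from the growth medium mean for 63 of the 68 members over 20 CPM on average (40 large and 23 small drawn), one column per library and sorted by the mean over conditioned libraries. The colour scale ends at 3 in both directions. By the mean over conditioned libraries Rps25, Rps4x and Rpl39 are highest and Rpl7a is lowest, and Rpl39 is paler in shControl-CM replicate 2.

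Between the conditioned media, few ribosomal protein genes differed, and those that passed the call rule were higher with shBrca2-CM. By the call rule 3 of 75 members tested were higher (4.00%) and 0 lower, beside 1.59% and 1.55% of all 11035 genes, and 14 members (18.7%) had an unadjusted p under 0.05, beside 13.4% of all genes and 24.2% of the 2339 genes over 100 mean normalized counts. By adjusted p alone 6 were higher and 0 lower, beside 1.72% and 1.61%. Of those abundant genes 2.82% were higher and 4.40% lower by the call rule. The groups did not overlap for 24 members (32.0%, all genes 19.8%), a share near the 30.6% of the abundant genes. Medians were 0.11 (large) and 0.05 (small) on the log2 scale, beside 0.03 for all genes and -0.077 for the abundant ones. No call was kept in all alternatives, and 0 members were called without shBrca2-CM replicate 1, shBrca2-CM replicate 2 or shControl-CM replicate 2, where 1.18% to 1.61% of all genes were called (3.14% with every library). With 4 higher and 4 lower members called without shControl-CM replicate 1, 9.14% of all genes were called, and with 2 higher and 1 lower without shBrca2-CM replicate 3, 1.48%.

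Rpl7 had 406, 417 and 312 CPM with shBrca2-CM, 286, 254 and 222 with shControl-CM, against 121 and 159 with growth medium. The order of the 3 media held in every library, and Rpl7 was 1.51-fold higher with shBrca2-CM than with shControl-CM (0.60 ± 0.16, adjusted p = 0.0806). Rpl31, which sits at the mouth of the exit tunnel, had 1133, 1288 and 1018 CPM with shBrca2-CM, 795, 766 and 857 with shControl-CM, against 482 and 600.0 with growth medium (0.53 ± 0.12, adjusted p = 0.0519). Against growth medium Rpl7 and Rpl31 rose by 0.57 to 0.86 with shControl-CM, calls that were lost without growth medium replicate 1, and by 1.09 to 1.43 with shBrca2-CM. Rps21, Rpl10a and Rpl23 were higher with shBrca2-CM by 0.43 to 0.44 (adjusted p from 0.0676 to 0.0952). Rps3a1, a small subunit gene that the symbol rule left out, was also higher, by 0.51 ± 0.13 (adjusted p = 0.0682).

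**Figure D5:**
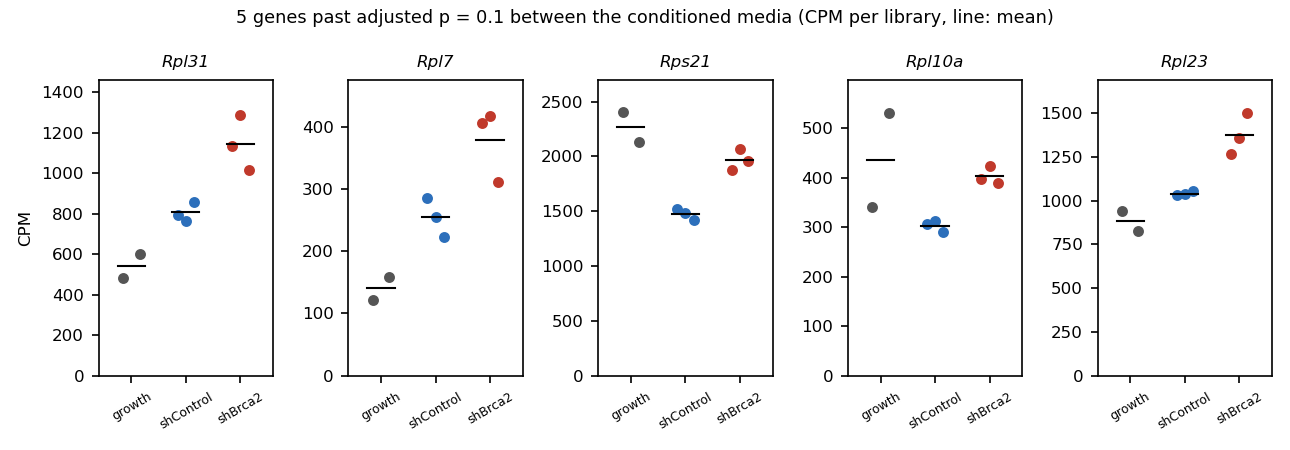
CPM per library, from 0, of 5 of the 6 members past an adjusted p of 0.1 between the conditioned media, with a line at the group mean. In each gene the 3 shBrca2-CM libraries lie above the 3 shControl-CM libraries.

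Some members varied widely within a group. Rpl19 had 729 and 777 CPM with growth medium, 554, 475 and 513 with shControl-CM, and 628, 709 and 212 with shBrca2-CM. Its change with shBrca2-CM (-0.56 ± 0.19, adjusted p = 0.0167) did not pass the adjusted p in 6 of 14 alternatives of the fit, among them that without shBrca2-CM replicate 3. Rps23 had 569 and 445 CPM with growth medium, 395, 429 and 514 with shControl-CM, and 243, 197 and 489 with shBrca2-CM. Among members with at least 100 counts in each library of a group, the highest library exceeded the lowest by over 1.5 times for 4 of 62 with shBrca2-CM (6.45%), 7 of 65 with shControl-CM (10.8%) and 3 of 66 with growth medium (4.55%), beside 2.79%, 17.1% and 2.99% of other genes.

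Ribosomal protein messages have many processed copies in the mouse genome, and a 3′ read that fits a gene and its copy equally well may be counted on either or on neither. The 200 bases that end 50 bases after the stop codon, or at the transcript end where it came sooner (16 members), were compared with all GENCODE vM39 transcripts, a later annotation than the mm10 build of the counts, and 75 members had such a window. The median member had 6 genes with at least 95% identity over at least 100 bases, 4 members had 0, and Rpl21 had the most (60), with 56 for Rpl7a. The coding ends of Rps25 and Rpl7a are shown because Rps25 was among the members that rose most and Rpl7a fell most. The last 60 coding bases of Rps25 (chromosome 9), stop codon included, are letter for letter those of Rps25-ps1 on chromosome 6, while Rpl7a (chromosome 2) differs from its copy Gm14853 on the X chromosome at 3 of the last 60 bases, in capitals. Gm14853 is shown because it had a row in the count table. Of the 5 other copies of Rpl7a compared, 4 differ at 1 base and 1 at 2 bases. Only copies with long alignments were compared, and most of the 56 were not. Among those left out, Gm4786 and Gm6286 had 100% identity over 148 aligned bases of the window.
Rps25 and Rps25-ps1: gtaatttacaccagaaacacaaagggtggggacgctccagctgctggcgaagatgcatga
Rpl7a: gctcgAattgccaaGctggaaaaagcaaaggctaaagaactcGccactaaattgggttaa
Gm14853: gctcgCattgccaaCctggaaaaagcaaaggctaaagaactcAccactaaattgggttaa

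Members with more copies were called more often, a difference given without a test, and they were also less abundant (median 719 CPM with over 5 copies, 1531 with at most 5). With at most 5 copies, 13 of 33 members (39.4%) were called with shControl-CM against growth medium and 11 of 33 (33.3%) with shBrca2-CM, whereas with over 5 copies it was 23 of 42 (54.8%) and 26 of 42 (61.9%). Of all genes 37.8% and 38.8% were called. Genes over 100 mean normalized counts are a closer background for abundant members. Of these 26.5% rose and 20.1% fell with shControl-CM, and 22.6% rose and 22.4% fell with shBrca2-CM. Both directions together, these shares exceed those of the members with few copies. All 3 members called between the conditioned media had over 5 copies. Of the leading genes, Rpl39 had 0 copies, Rps14 had 2, Rps25 had 5, Rps13 and Rps18 had 6 each, Rps4x had 7, Rpl36a had 10, Rps27a had 14 and Rpl10 had 16. Only 24 copies had rows of their own, and these moved with their parent gene about as often as against it. Where copy and parent were both past the adjusted p, 4 copies moved with the parent and 4 against it with shControl-CM, and 3 with and 4 against it with shBrca2-CM. Agbl3, with a transcript close to that of Rpl7a, fell as Rpl7a did, by 1.06 (adjusted p = 0.0298) and 0.94 (adjusted p = 0.0287) on the log2 scale. Gm6525 rose with its parent Rpl36a with shControl-CM, by 2.61 (adjusted p = 0.00851). Rpl14-ps1 had 9.91 and 8.81 CPM with growth medium, 40.4, 28.0 and 52.97 with shControl-CM, and 96.9, 22.4 and 78.1 with shBrca2-CM (log2 2.11, adjusted p = 0.000884, and 2.80, adjusted p = 9.59e-13), whereas Rpl14 fell by 0.80 and 0.81. Ide, a protease gene with a transcript whose 200 bases equal those of Rpl10, rose by 1.49 (adjusted p = 0.00162) and 1.58 (adjusted p = 1.47e-08) as Rpl10 fell. The part of shared reads in any member's values was not tested.

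RefSeq promoters of GRCm38.p6, the assembly that mm10 stands for (250 bases before to 50 after the start) were matched for 57 of the 76 members. A run of at least 8 pyrimidines within 30 bases of the start was present in 33 of 57 (57.9%), beside 25.8% of all 27025 promoters. The start windows are printed for genes that rose (Rps25, Rps4x, Rpl39, Rpl36a) and fell (Rpl7a, Rps13, Rps18), from 10 bases before to 20 bases from the start, with runs of at least 4 pyrimidines in capitals.
Rps25, chr9:44407704-44407733, plus strand: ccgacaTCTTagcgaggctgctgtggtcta
Rps4x, chrX:102189372-102189401, minus strand: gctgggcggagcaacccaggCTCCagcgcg
Rpl39, chrX:37085203-37085232, minus strand: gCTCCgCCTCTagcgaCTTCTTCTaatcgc
Rpl36a, chrX:134585644-134585673, plus strand: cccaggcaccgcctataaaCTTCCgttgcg
Rpl7a, chr2:26910797-26910826, plus strand: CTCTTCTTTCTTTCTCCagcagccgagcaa
Rps13, chr7:116334171-116334200, minus strand: caaacgtcggtgagtggcgtcaCTTCCTgt
Rps18, chr17:33955646-33955675, minus strand: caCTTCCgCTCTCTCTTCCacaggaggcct
These genes were picked without a fixed rule. The longest printed runs are those of Rpl7a and Rps18, both of which fell. Rpl39, which rose, also has a printed run of at least 8, and Rps13, which fell, has none in its printed window. A link between run and change was not tested, and RefSeq's start can lie some bases from the one used in these cells. Members with a run had a median log2 change of -0.28 with shControl-CM and -0.18 with shBrca2-CM against growth medium, beside 0.06 and 0.17 for the 24 members without, and the middle 50% of both sets overlapped. Between the conditioned media the medians were 0.02 with and 0.09 without a run. On either strand, the ETS factor motif CCGGAAG was in 23 of 57 members (40.4%, all promoters 9.93%), the YY1 motif AAGATGGC in 5 (8.77%, all 3.19%), the E-box CACGTG in 6 (10.5%, all 8.09%) and the heat shock element GAANNTTC in 4 (7.02%, all 9.04%).

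Other genes of the translation machinery were called in both directions against growth medium, in shares to be read beside 18.4% higher and 19.5% lower of all genes with shControl-CM and 19.1% and 19.8% with shBrca2-CM. Of 75 mitochondrial ribosomal protein genes, which form the separate ribosome of mitochondria, 11 rose (14.9% of 74 tested) and 17 fell (23.0%) with shControl-CM against growth medium and 10 rose (13.3%) and 14 fell (18.7%) with shBrca2-CM (medians -0.04 and -0.22), and 0 were called between the conditioned media. Mrpl42 rose in both, from 23.6 and 20.4 CPM to 102 to 129 (2.28 ± 0.19, adjusted p = 3.26e-05, and 2.50 ± 0.18, adjusted p = 4.74e-18). Of 15 elongation genes 4 rose (26.7%) and 5 fell (33.3%) with shControl-CM and 3 rose (20%) and 5 fell (33.3%) with shBrca2-CM, among them Tpt1, itself a TOP message, at 1894 and 2202 CPM with growth medium and 555 to 1086 with the conditioned media. Of 33 initiation genes 8 rose (24.2%) and 7 fell (21.2%) with shControl-CM, and 7 rose (21.2%) and 6 fell (18.2%) with shBrca2-CM. Of 64 ribosome biogenesis genes 8 rose (12.5%) and 7 fell (10.9%), and 13 rose (20.3%) and 15 fell (23.4%), respectively, among them Nop10, of the box H/ACA particles. Nop10 had 11 and 2 counts with growth medium (1.91 and 0.43 CPM), the second under the floor, and 5.77 to 40.1 CPM with the conditioned media, so no fold is given. None of the elongation, initiation or biogenesis genes was called between the conditioned media.

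Among 27 regulators of ribosome production, 5 rose (18.5%) and 6 fell (22.2%) against growth medium in each comparison, shares near those of all genes. Rheb, the activator of mTORC1, had 315 and 275 CPM with growth medium and 53.7 to 149 with the conditioned media (with shBrca2-CM -1.59 ± 0.16, adjusted p = 1.58e-12). Ddit4, an inhibitor of mTORC1, was the only regulator that differed between the conditioned media, at 124, 107 and 138 CPM with shBrca2-CM and 236, 259 and 249 with shControl-CM (-0.98 ± 0.14, adjusted p = 0.00279), beside 84.1 and 95.2 with growth medium. Of 20 p53 targets 1 rose (5.0%, all genes 18.4%) and 6 fell (30%, all genes 19.5%) with shControl-CM, and 1 rose (5.0%, all genes 19.1%) and 7 fell (35.0%, all genes 19.8%) with shBrca2-CM, with 0 called between the conditioned media. Of 9 ribosomal genes outside the rule 1 rose and 1 fell with shControl-CM (1 and 2 by adjusted p alone), and 2 rose and 0 fell with shBrca2-CM (3 and 1). Rps3a1 was lower with shControl-CM by adjusted p alone (-0.44, adjusted p = 0.0591), and 0.05 from growth medium with shBrca2-CM. Fau and Rack1 differed from growth medium by 0.03 to 0.31 on the log2 scale (Rack1 with shBrca2-CM 0.31, adjusted p = 0.0431), Rps19-ps3 rose by 0.80 ± 0.29 with shBrca2-CM (adjusted p = 0.0205), and Rpl22l1, Rpl7l1 and Rsl24d1 did not pass the test.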

How the data were processed

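RNA of PSCs was measured in 8 libraries of message 3′ ends (MARS-seq). The authors deposited whole-number read counts for 12160 genes without normalization. The submitters' processing notes name bcl2fastq, cutadapt, STAR 2.4.2a, HTSeq, DESeq2 and the build mm10. Replicates are separate domes by the study's methods, and p-values measure only the spread between them. A further per-sample column (1) fitted no sample and was left out. Each pair of groups was fitted with edgeR 4.0.16 in R 4.3.3 (TMM, at least 10 counts per gene over the libraries fitted, quasi-likelihood test) on all genes, with Benjamini-Hochberg adjustment, after tests on simulated counts. Calls needed an adjusted p under 0.1, a mean normalized count over 5 and a log2 fold change larger than 0.5 in either direction. The members and gene lists were chosen with earlier results of these data known. Named genes were members fixed for their roles, the 5 with the most counts, up to 5 with the largest change in each direction and up to 10 of the less frequent direction per comparison, and up to 2 per list. Genes of a list under the floor were not named, except Nop10, which was under it in a growth medium library and is given without a fold. Rpl19, Rps23, Rpl14, Ide, Rpl14-ps1, Agbl3, Gm6525, Fau and Rack1 were picked with their values in view. Alternatives were DESeq2 1.42.0 (likelihood ratio test, Wald test, size factors), total counts, other filters and thresholds, 1 fit of all 3 groups, a replicate block, libraries thinned to the smallest, and each library left out. Restriction to members with at most 5 copies was added after seeing the data. Some genes that the rule would name are not reported here.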

Additional observations from a re-analysis of the deposited data

How the results depend on the processing

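No call of a ribosomal protein gene reversed in any alternative. Of genes past adjusted p alone, 35 of 51 (shBrca2-CM against growth medium), 14 of 46 (shControl-CM against growth medium) and 0 of 6 (between the conditioned media) passed in every alternative of the fit. With scaling to total counts the all-gene median went from 0.03 to 0.14 between the conditioned media and from -0.10 to -0.21 with shControl-CM, the large subunit median to 0.23 and -0.25 and the small subunit median to 0.16 and -0.25, a shift that scaling gives to the genes of a comparison alike. It gave 8 higher members between the conditioned media, where adjusted p alone gave 6 and adjusted p under 0.05 gave 0. Thinning to the smallest library gave medians against growth medium of 0.047 (large, shBrca2-CM), -0.086 (small, shBrca2-CM) and -0.046 (small, shControl-CM). With at most 5 copies, medians were -0.24 (large) and -0.26 (small) for shControl-CM against growth medium and 0.15 (small) between the conditioned media, and calls numbered 5 higher and 6 lower (shBrca2-CM), 4 higher and 9 lower (shControl-CM), and 0 higher between the conditioned media, where fewer genes were counted by construction. Without the 10 most abundant genes the mean share was 9.71% (growth medium) and 9.12% (shControl-CM).

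Leaving out a library gave, for shBrca2-CM against growth medium, medians from -0.12 to 0.070 (large) and -0.23 to -0.082 (small), with 17 to 19 higher and 16 to 19 lower. For shControl-CM against growth medium they were -0.25 to -0.082 and -0.21 to -0.015, with 7 to 15 higher and 10 to 22 lower. Between the conditioned media they were 0.026 to 0.14 and -0.0080 to 0.090, with 0 to 4 higher and 0 to 4 lower (4 without shControl-CM replicate 1, 1 without shBrca2-CM replicate 3). With 1 growth medium library left, it is assumed to vary like the other group. The cause was not tested for any of these moves other than the count by construction. Same-numbered libraries of the conditioned media deviated together with r = -0.07, 0.03 and 0.18 over 5878 genes. Differently numbered ones ranged from -0.25 to 0.27. No pairing by number was seen, but so few libraries cannot exclude one. A replicate block moved the large subunit median of shBrca2-CM against growth medium to 0.026 and gave 3 higher and 0 lower members between the conditioned media, 13 and 21 for shControl-CM and 17 and 18 for shBrca2-CM.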
